A study of Mus musculus with 10 samples.

Results

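NKCC1 and KCC2 are the membrane transporters that set the chloride gradient of a neuron, and they were followed here together with KCC4. Their genes, Slc12a2 (NKCC1), Slc12a5 (KCC2) and Slc12a7 (KCC4), were chosen by symbol, and all 3 were found among the 18216 genes of the table. The samples were prefrontal cortex from male C57BL/6N mice at postnatal day 10, and RNA was sequenced from 1 library per mouse. There were 5 Arid1b heterozygotes (HT, Arid1b+/-) and 5 wild-type mice (WT). The heterozygotes carry a germline protein-truncating mutation in 1 copy of the chromatin remodeler gene Arid1b, a deletion with an inserted TT per the study's methods. The labels give no treatment, and mothers reared pups of both genotypes in 1 cage. The question was whether the balance of chloride import and export genes differed between the genotypes at this age.

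NKCC1 carries sodium, potassium and chloride into the cell, and KCC2 carries potassium and chloride out. In the cortex, neurons are known to begin with much NKCC1 and little KCC2, and the opposite balance is reached during postnatal development, after which GABA inhibits more strongly. KCC2 is almost restricted to neurons, whereas NKCC1 is also made by glia, progenitors and vascular cells, and KCC4 is a potassium-chloride cotransporter with low levels in most of the brain.

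The Slc12a5 gene (ENSMUSG00000017740) lies on chromosome 2 at 164960802 to 164999731 on the plus strand of GRCm38, and Slc12a7 (ENSMUSG00000017756) lies on chromosome 13 at 73733094 to 73816754, also on the plus strand. Slc12a5 is transcribed from alternative first exons that give the KCC2a and KCC2b proteins, and the gene-level values used here add both. The sequences before these starts are shown because they hold the region in which known regulators of KCC2, such as the USF and EGR factors, could bind. Each sequence covers 206 bases, from 250 to 45 bases before a RefSeq start on GRCm38.p6, so that no exon is included. Capitals mark the GC box GGGCGG on either strand, and the E-box CACGTG and the EGR motifs GCGGGGGCG and GCGTGGGCG were searched on both strands as well.
Slc12a5, upstream start, chr2:164960596-164960801 (+): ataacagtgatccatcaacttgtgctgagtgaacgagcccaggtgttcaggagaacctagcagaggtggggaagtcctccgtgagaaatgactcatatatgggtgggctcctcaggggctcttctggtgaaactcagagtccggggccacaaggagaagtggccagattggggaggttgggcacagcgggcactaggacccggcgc
Slc12a5, downstream start, chr2:164967738-164967943 (+): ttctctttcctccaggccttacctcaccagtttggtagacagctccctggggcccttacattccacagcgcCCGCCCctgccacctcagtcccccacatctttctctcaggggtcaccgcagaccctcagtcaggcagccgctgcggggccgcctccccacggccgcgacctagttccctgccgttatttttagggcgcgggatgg
Slc12a7, chr13:73763447-73763652 (+): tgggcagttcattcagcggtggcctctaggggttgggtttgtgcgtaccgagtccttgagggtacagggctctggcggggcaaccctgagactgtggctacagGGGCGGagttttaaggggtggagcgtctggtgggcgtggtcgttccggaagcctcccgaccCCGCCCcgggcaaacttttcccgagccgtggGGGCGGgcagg
The upstream Slc12a5 window held none of these motifs, the downstream window held 1 GC box, and the Slc12a7 window shown held 3. A second Slc12a7 window, chr13:73763410-73763615, which overlaps the first, held 1 and is not shown. Over 32851 promoter windows of the same length, 25.8% held a GC box, 4.5% the E-box and 2.07% an EGR motif. These matches describe letters in a window and are not binding sites.

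The values are normalised counts, that is, estimated reads per gene divided by a size factor for each library, and they summed to between 31106330 and 32106791 per sample. Arid1b itself was 1894 ± 86.6 in HT and 2842 ± 142 in WT (SD, n = 5 each), with no overlap, and its log2 fold change was -0.59 (limma, adjusted p = 9.96e-05). All 9 cortex markers were detected in every library, with summed levels of 55356 to 73474 in HT and 62258 to 75545 in WT. Of these 9 genes, 2 were higher in HT on average, and 2 were lower with an unadjusted limma p under 0.05 (4.52% of all genes were lower at that level). Marker sums for neighbouring tissue differed between libraries. On average striatum markers were higher in HT for 11 of 12 genes (median log2 fold change 0.54) and olfactory bulb markers for 7 of 7 (0.48), with 0 and 1 of them at an unadjusted limma p under 0.05. The sum of 7 olfactory bulb markers was 3539 in HT2 and 3466 in WT4 and between 698 and 2081 in the other samples. The sum of 12 striatum markers was between 4129 and 5247 in HT5, WT3 and WT5 and between 10759 and 16502 in the other samples, and the striatum marker Isl1 was listed at 0 in at least 1 sample. Astrocyte markers were higher in HT for 12 of 12 genes, 8 of them with an unadjusted limma p under 0.05 (4.71% of all genes were higher at that level) and 0 past the adjusted threshold, with summed levels of 163798 to 208036 in HT and 148943 to 176163 in WT. Oligodendrocyte-lineage markers were also higher on average in HT for 12 of 12 genes (summed levels 70049 to 93906 in HT and 41504 to 96861 in WT), as were microglia markers for 8 of 8 (10080 to 14115 and 9861 to 11365), with 1 and 2 genes at an unadjusted limma p under 0.05. Marker scores enter some fits below as covariates and are correlated with the cotransporter genes. How much of a result these differences account for was not tested, and in bulk tissue fewer cells of a type and less RNA per cell cannot be told apart. Because of these marker sums, results were also computed without HT2 and WT4 and without HT5, WT3 and WT5, and both choices were made after seeing the data.

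Neither the importer nor the 2 exporters differed between genotypes beyond the spread between mice. In limma, 0 of the 3 genes passed an adjusted p of 0.05, against 0.0179% of the 16781 genes tested, and 0 of 3 had an unadjusted p under 0.05, against 9.23%. The groups overlapped for each of the 3, whereas they did not for 1.62% of all genes.

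Slc12a2 (ENSMUSG00000024597, on chromosome 18), the chloride importer, was 1882, 1902, 1885, 2025 and 1823 normalised counts in HT1 to HT5. In WT1 to WT5 it was 1772, 1903, 1551, 1854 and 1740. Each of the 5 HT values exceeded the WT mean, WT2 and WT4 lay within the HT range, and WT3 was the lowest sample. The means were 1903 ± 74.5 in HT and 1764 ± 135 in WT (SD, n = 5). The log2 fold change was 0.11 with an SE of 0.056 and a 95% interval of -0.01 to 0.23, and it missed the threshold (limma, adjusted p = 0.56). Without WT3, the value was 0.07 (limma, adjusted p = 0.81), and without HT5, WT3 and WT5 it was 0.06 (limma, adjusted p = 1.00). It was 0.14 without WT2, 0.13 without WT4 and 0.12 under upper-quartile rescaling. Each of these had an unadjusted limma p under 0.05 and an adjusted p between 0.46 and 0.57. With the astrocyte, striatum and neuron scores as covariates in turn, it was 0.08, 0.08 and 0.10 (limma, adjusted p = 0.99, 0.60 and 0.82). WT3 was also the sample with the lowest summed oligodendrocyte-lineage markers, 41504. Choroid plexus, which makes much NKCC1, was represented by 5 of 8 markers in the table, and their summed level was 124 to 184 in HT and 89 to 138 in WT.

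Slc12a5, the neuronal chloride exporter, was 15858, 13651, 16061, 15360 and 15219 normalised counts in HT1 to HT5. In WT1 to WT5 it was 15737, 16005, 15783, 13398 and 15637. The lowest sample of each genotype, HT2 and WT4, stood below the other 8, which lay between 15219 and 16061. These are the libraries with the most olfactory bulb markers. Of 10 general neuron markers, 2 were higher in HT on average and 3 were lower with an unadjusted limma p under 0.05, against 4.52% of all genes (summed levels 183916 to 232021 in HT and 220630 to 238847 in WT). The means were 15230 ± 948 in HT and 15312 ± 1078 in WT (SD, n = 5), a log2 fold change of -0.01 with an SE of 0.060 and an interval of -0.14 to 0.12 (limma, adjusted p = 0.98). The sign of so small a difference was not stable: it was positive in 12 of 26 alternative fits, with values up to 0.06.

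Slc12a7, the less abundant exporter, was 149, 199, 153, 207 and 313 normalised counts in HT1 to HT5. In WT1 to WT5 it was 242, 214, 182, 235 and 212. The HT mice spread more widely than the WT mice, with HT1 and HT3 below every WT sample and HT5 above every WT sample. The means were 204 ± 66.2 and 217 ± 23.7 (SD, n = 5), with a log2 fold change of -0.13, an SE of 0.17 and an interval of -0.50 to 0.24 (limma, adjusted p = 0.81). Without HT5, the value was -0.30, with an unadjusted limma p under 0.05 and an adjusted p = 0.72. Without HT5, WT3 and WT5 it was -0.39 (limma, adjusted p = 1.00), and with the astrocyte score as a covariate -0.49 (limma, adjusted p = 0.99), both with an unadjusted p under 0.05. Without HT1 it was -0.03 and without HT3 -0.04. HT5 had the highest summed meninges markers, 20550 against 9882 to 16484 in the other samples, and HT1 and HT3 had the lowest, 9882 and 10523. The spread of Slc12a7 within groups was 0.32 on the log2 scale, against 0.09 for Slc12a2 and 0.10 for Slc12a5.

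**Figure D1:**
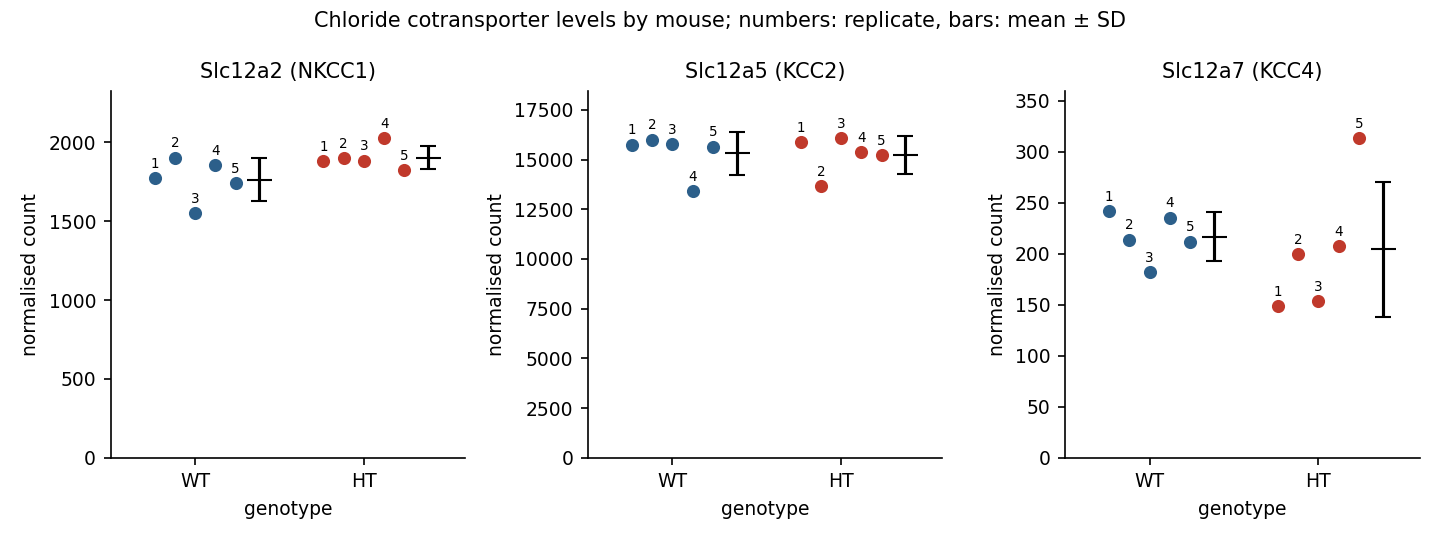
Normalised counts of Slc12a2, Slc12a5 and Slc12a7 (y axes, from 0) in the WT and HT mice; points are mice with their replicate numbers, and bars give the mean ± SD of 5 mice. The genotypes overlap in each panel, WT4 and HT2 are the low points for Slc12a5, and HT5 is the high point for Slc12a7.

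The Slc12a5 to Slc12a2 ratio sets the exporter against the importer within a library and does not depend on the size factors. It was 8.43, 7.18, 8.52, 7.58 and 8.35 in HT1 to HT5 and 8.88, 8.41, 10.2, 7.23 and 8.99 in WT1 to WT5. All 5 HT mice lay below the WT mean, but WT4 was among the lowest samples and the groups overlapped. The mean ratio was 8.01 ± 0.597 in HT and 8.73 ± 1.06 in WT (SD, n = 5). The difference of log2 ratios was -0.12 with a 95% interval of -0.32 to 0.11, which an exact two-sided permutation test did not separate from 0 (p = 0.21 and 0.40 adjusted over 3 ratios). With 5 mice per group, the smallest p this test can give is 0.0079. Without WT4 the difference was -0.19 (exact permutation p = 0.048, not adjusted), without WT3 it was -0.06 (exact permutation p = 0.46), and without HT5, WT3 and WT5 it was -0.04 (exact permutation p = 0.74).

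The other ratios gave no difference past the threshold. Slc12a7 to Slc12a2 was 0.108 ± 0.0376 in HT and 0.123 ± 0.00932 in WT, and the log2 difference was -0.24 with an interval of -0.65 to 0.23 (n = 5 each, exact permutation p = 0.27, 0.40 adjusted). HT5 decided this value: its ratio was 0.172, the other 4 HT ratios were between 0.079 and 0.105, and all WT ratios were between 0.112 and 0.136. HT5 was the only HT mouse not below every WT ratio, so leaving it out sets the groups apart. The exact permutation p is then fixed at its smallest value (p = 0.0079, not adjusted) and is no evidence of a difference. The log2 difference without HT5 was -0.43. Without HT1 it was -0.15, without HT3 -0.16, and without HT5, WT3 and WT5 -0.45 (exact permutation p = 0.057). Slc12a5 to Slc12a7 was 80.5 ± 24.9 in HT and 71.6 ± 11.3 in WT, a log2 difference of 0.12 (n = 5 each, exact permutation p = 0.60). It was 0.01 without HT1, 0.02 without HT3, 0.05 without WT4, 0.20 without WT3, 0.29 without HT5 and 0.41 without HT5, WT3 and WT5 (exact permutation p = 0.17).

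**Figure D2:**
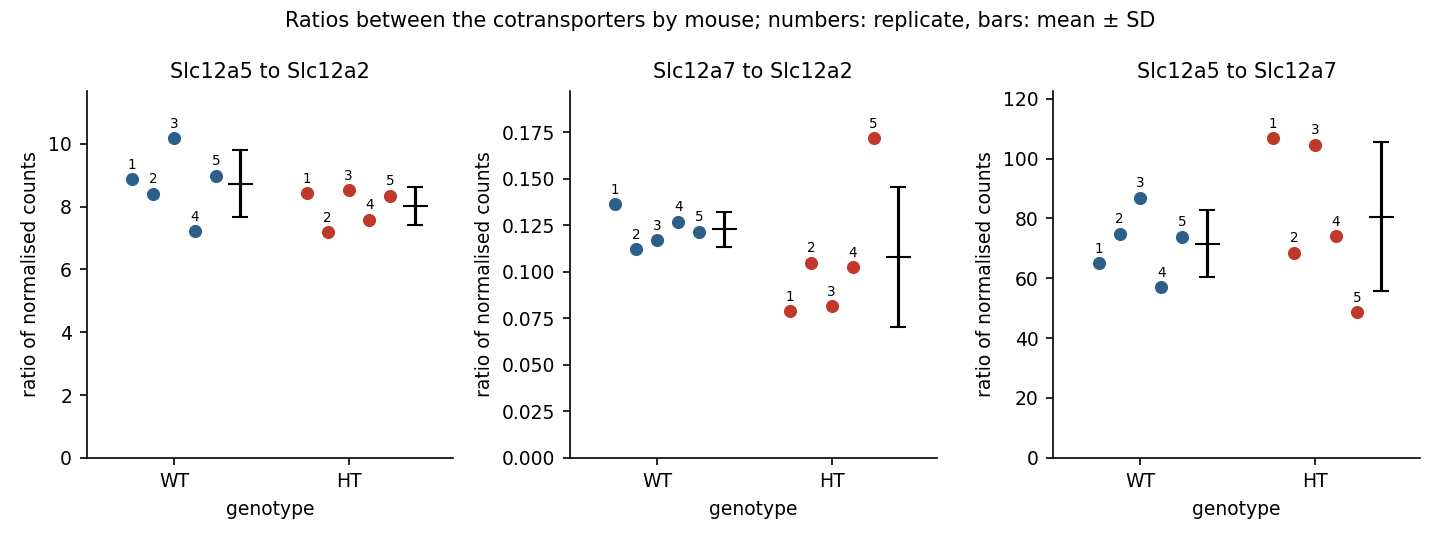
Ratios of normalised counts (y axes, from 0) between the cotransporters in each mouse; points carry replicate numbers, and bars give the mean ± SD of 5 mice per genotype. The HT ratios of Slc12a5 to Slc12a2 run from 7.18 to 8.52 and the WT ratios from 7.23 to 10.2, and HT5 stands above all other mice for Slc12a7 to Slc12a2.

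Per kb of the longest coding transcript, Slc12a5 was the highest of the 7 SLC12 genes described here, at 2527 ± 157 normalised counts per kb in HT and 2540 ± 179 in WT. Slc12a2 reached 292 ± 11.4 in HT and 271 ± 20.8 in WT, and its range over the 10 samples (238 to 311) overlapped that of Slc12a9 (191 to 294). Slc12a4 (KCC1) reached 192 ± 21.0 and 190.0 ± 23.8, and Slc12a7 39.7 ± 12.9 and 42.2 ± 4.60. Slc12a8 and Slc12a3, the thiazide-sensitive cotransporter of the kidney, were lowest, with 10.4 and 8.92 per kb in HT and WT for Slc12a8 and 4.57 and 4.99 for Slc12a3. Slc12a1 was not analysed here. These levels depend on the transcript lengths chosen.

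**Figure D3:**
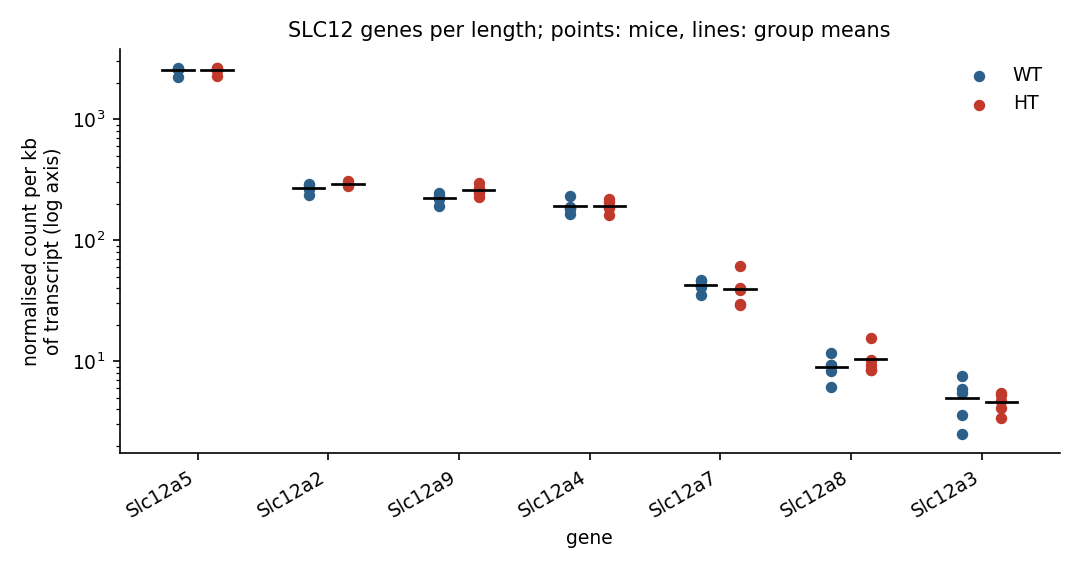
Normalised counts per kb of the longest coding transcript (y axis, log scale) for 7 SLC12 genes; points are mice and lines are group means, WT left and HT right of each tick. Slc12a5 lies above the other genes plotted, and the genotypes overlap for every gene.

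The lists around these transporters were chosen with earlier results of these data known, and none of their genes passed the adjusted threshold. In the SLC12 family 0 of 7 genes passed the adjusted threshold (limma) and 1 had an unadjusted p under 0.05, a level reached by 9.23% of all genes. It was Slc12a9, a family member of unsettled transport function, at 860.4 ± 83.9 in HT and 737 ± 65.4 in WT (log2 fold change 0.22, limma adjusted p = 0.48). The median log2 fold change of the 7 genes was 0.014 and that over all genes -0.0035. Without WT4, the family median was 0.12.

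The WNK kinases and their partners SPAK and OSR1 phosphorylate the cotransporters, which activates NKCC1 and inhibits the KCCs. Of 13 genes in this cascade, 0 passed the adjusted threshold and 1 had an unadjusted p under 0.05 (limma), against 9.23% of all genes, with a median of -0.01. That gene was Sgk1, a kinase that acts on this cascade, with 1505 ± 133 in HT and 1305 ± 94.8 in WT (log2 fold change 0.20, limma adjusted p = 0.48). HT2 was the low HT sample for Sgk1 (1274) and WT5 the high WT sample (1469). Wnk1 had a value of 0.12 and Wnk2 one of 0.04, and neither had an unadjusted p under 0.05 (limma).

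Regulators of KCC2 expression, trafficking and degradation were read from 19 genes, of which 0 passed the adjusted threshold, 1 was higher and 4 were lower in HT at an unadjusted p under 0.05 (limma). Over all genes 4.71% were higher and 4.52% lower at that level, and the median of the list was 0.01. The count of 5 was 3 without HT2, HT5, WT3 or WT5 in turn, 2 with the astrocyte score as a covariate, and 1 without HT5, WT3 and WT5. Usf2, a transcription factor known to bind E-boxes in the Slc12a5 gene, was 2475 ± 72.8 in HT and 2271 ± 51.8 in WT (log2 fold change 0.12, limma adjusted p = 0.47). Its groups did not overlap, as for 1.62% of all genes. The 4 lower genes were the protein kinases C Prkca (-0.16) and Prkcb (-0.13), which phosphorylate KCC2 and hold it at the membrane, the protease Capn1 (-0.19), which cleaves KCC2, and the growth factor gene Bdnf (-0.20). Their adjusted p-values were between 0.47 and 0.54 (limma). Ntrk2, the receptor of BDNF, had a value of 0.05, and the KCC2-interacting genes Ckb and Epb41l1 had values of 0.08 and 0.01, none with an unadjusted p under 0.05 (limma).

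Of 11 genes of anion and pH transport, 0 had an unadjusted p under 0.05 in either direction (limma), against 9.23% of all genes, with values of 0.09 for Slc4a4, -0.15 for Slc4a10 and -0.05 for Clcn3.

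**Figure D4:**
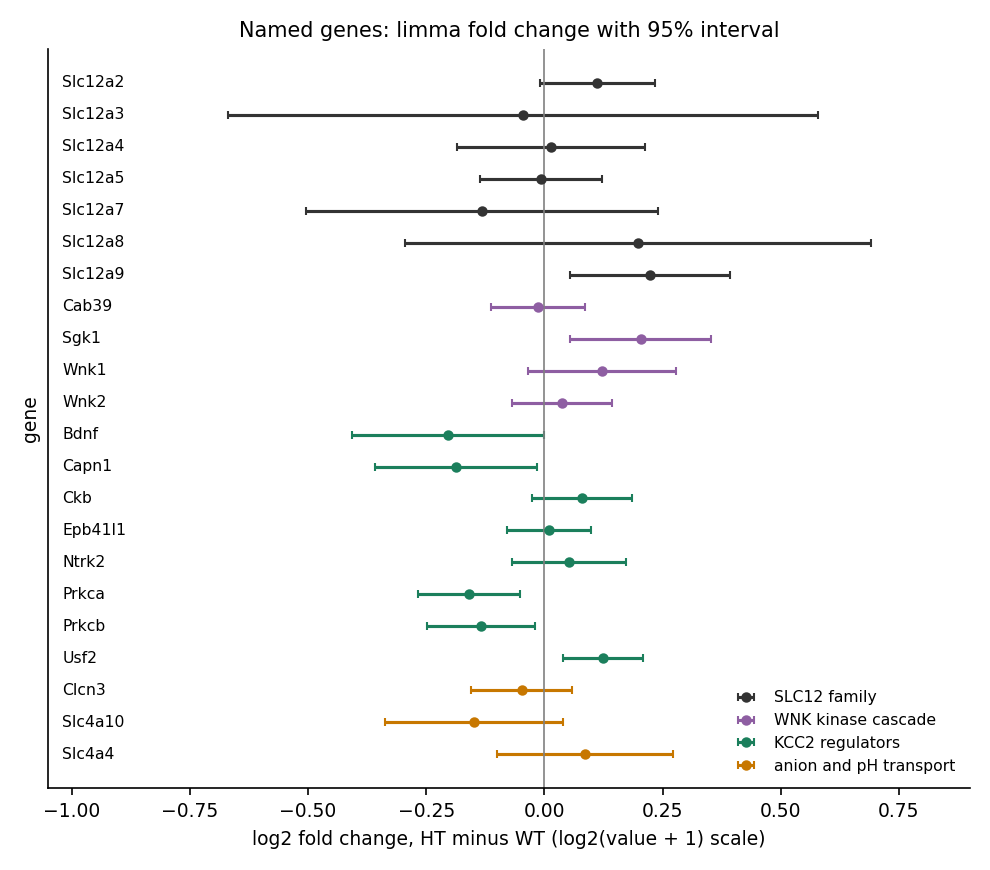
Log2 fold change, HT minus WT (x axis, limma on log2(value + 1)), with 95% intervals for the named genes of the 4 lists, coloured by list. The interval of Slc12a5 lies between -0.14 and 0.12. Slc12a9, Sgk1, Usf2, Prkca, Prkcb, Capn1 and Bdnf were named for an unadjusted limma p under 0.05, so their intervals lie to 1 side of 0 by that choice. None passed the adjusted threshold.

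Across the 10 libraries, 43 relations were computed among the 3 genes, the exporter to importer ratio and 10 marker scores (the mean z-score of a list), with Benjamini-Hochberg adjustment over all 43. None of the 3 pairs among the genes passed. Slc12a2 and Slc12a5 had r = -0.21 (rho = 0.05, n = 10, permutation p = 0.54 and 0.89), and Slc12a2 and Slc12a7 had r = -0.02 (rho = -0.19, permutation p = 0.96 and 0.61), or -0.44 without HT4 and WT3. Slc12a5 and Slc12a7 had r = -0.31 (rho = -0.49, permutation p = 0.38 and 0.15), or -0.71 without HT2 and WT4. In 5 relations Pearson's r had an adjusted permutation p of 0.047, and in none did rho pass.

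Slc12a5 followed the cortex markers (r = 0.84, permutation p = 0.0055; rho = 0.75, permutation p = 0.018), and r was 0.92 without HT2 and HT5. With the olfactory bulb score its r was -0.81 (permutation p = 0.0055; rho = -0.49, permutation p = 0.16) and with the immature neuron score -0.84 (permutation p = 0.0020; rho = -0.61, permutation p = 0.068). Without HT2 and WT4 these values were -0.28 and -0.47, so both relations rested on those samples. With the meninges score, Slc12a5 had rho = -0.85 (permutation p = 0.0025, 0.054 adjusted). Pearson's r was -0.45 there (permutation p = 0.18), or -0.28 without HT1 and HT3. Slc12a2 had r = 0.88 with the oligodendrocyte-lineage score (permutation p = 0.0037; rho = 0.79, permutation p = 0.0086), which fell to 0.38 without WT3 and WT5. Slc12a7 had r = 0.83 with the meninges score (permutation p = 0.0039; rho = 0.55, permutation p = 0.10), and 0.57 without HT1 and HT3. For the Slc12a5 to Slc12a2 log2 ratio, no relation passed the adjustment. It had r = 0.64 with the neuron score (permutation p = 0.047; rho = 0.89, permutation p = 0.0012, 0.051 adjusted), or 0.77 without HT2 and HT5, and r = 0.72 with the cortex score (permutation p = 0.021; rho = 0.65, permutation p = 0.050), or 0.77 without HT2 and HT5. With the oligodendrocyte-lineage score r was -0.71 (permutation p = 0.020; rho = -0.58, permutation p = 0.086), or -0.14 without WT3 and WT5, and with the immature neuron score -0.67 (permutation p = 0.037; rho = -0.75, permutation p = 0.018), or -0.36 without HT2 and WT4. The striatum scores fell into separate clusters, with HT5, WT3 and WT5 apart from the others. Over all 10 samples, r with the striatum score was 0.73 for Slc12a2 (permutation p = 0.0076, 0.055 adjusted, rho = 0.67). It was 0.68 without HT5 and WT3, which still leaves WT5 in the low cluster. For Slc12a5 the value over all samples was -0.13 (permutation p = 0.82). Over the 7 samples with more striatum markers, r was 0.35 for Slc12a2 and 0.27 for Slc12a5. In those 7 samples the cortex relation of Slc12a5 was 0.87 and the meninges relation of Slc12a7 was 0.77, whereas the oligodendrocyte-lineage relation of Slc12a2 was 0.34.

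**Figure D5:**
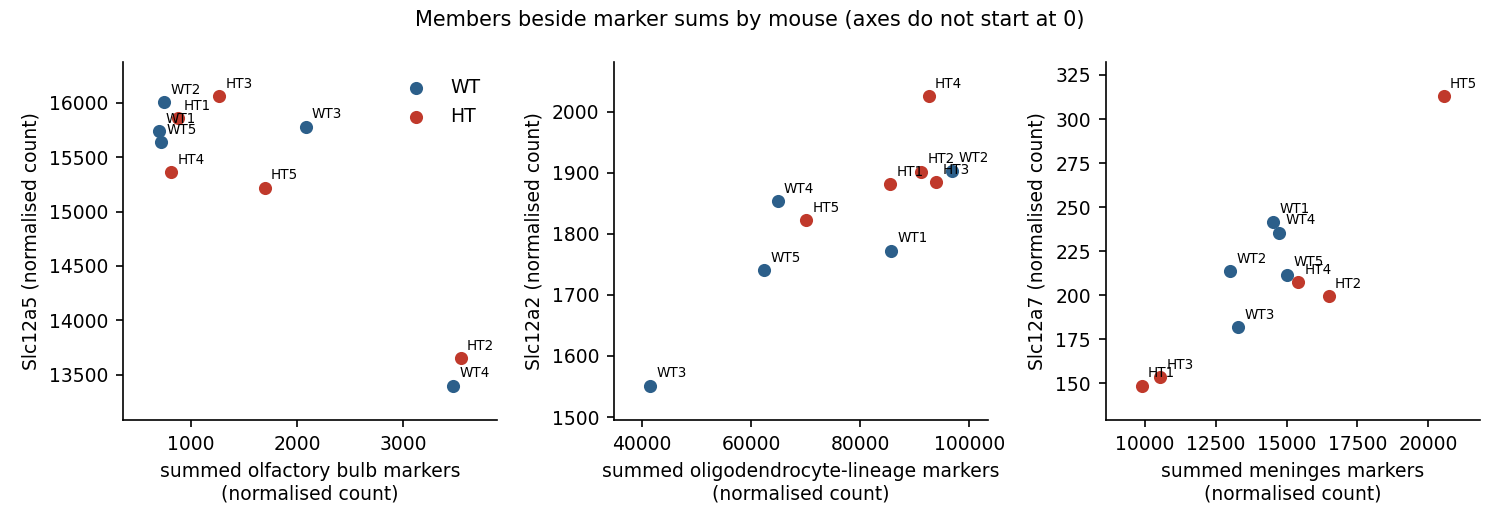
Normalised counts of Slc12a5, Slc12a2 and Slc12a7 (y axes) against the summed normalised counts of olfactory bulb, oligodendrocyte-lineage and meninges markers (x axes); points are mice coloured by genotype, and the axes do not start at 0. HT2 and WT4 sit apart at 3539 and 3466 on the left, WT3 at 41504 in the middle, and HT5 at 20550 on the right.

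By Pearson correlation over the 10 samples among 13887 genes with a mean of at least 50, the genes most like Slc12a5 included Otub1 (0.98), Syne1 (0.97), Gm10222 (0.97) and Extl1 (0.97). Those most like Slc12a2 included Slc50a1 (0.92), Mcam (0.91), Gnptg (0.91) and Ankrd23 (0.90). For Slc12a7 they were Slc47a1 (0.91), Znrf3 (0.90), Mrc2 (0.90), Dcn (0.90) and Plin3 (0.89), and Dcn is also 1 of the 8 meninges markers. These values describe likeness across the same libraries and carry no test.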

How the data were processed

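RNA from the prefrontal cortex of 5 HT and 5 WT mice was sequenced by the authors as stranded poly-A libraries. Per the labels and the study's methods, the authors estimated transcript abundance with Salmon 1.1.0 against GRCm38 with GC-bias correction, summed it to genes with tximport and divided by size factors with DESeq2 1.30.1. What they deposited is thus a normalised signal, not whole reads, so library depth is unknown, no counting interval is given and no count test was run. Groups and replicate numbers came from the sample titles, and columns were matched to samples by name. Because values are scaled, differences are relative to all other genes.

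Symbols for 18205 of 18216 identifiers came from a gene name table, positions and transcript lengths from GENCODE M21 (GRCm38), and promoters from RefSeq. Genes averaging 10 or more over all samples (16781) entered a limma fit on log2(value + 1), with limma 3.58.1 under R 4.3.3 (eBayes with a variance trend, two-sided, Benjamini-Hochberg over all of them, threshold 0.05). Fold changes on this scale understate those of low genes. For ratios, group means were compared by exact permutation (two-sided, 252 assignments), with the interval from inverting it, and correlations used 100000 permutations (scipy 1.17.1). P-values set a difference or a correlation against the variation between mice. Those of correlations permute all 10 samples, so the genotype difference is part of them.

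Named genes were the 3 cotransporters, the SLC12 genes, list genes with an unadjusted p under 0.05 and otherwise the 3 with the highest mean per list, and those among the 5 genes most like each cotransporter. Some genes that this rule names, and a list that holds some of them, are not reported here. The members and lists were chosen with earlier results of these data known. Alternatives were other pseudocounts (0.5 and 10), filters (none, and a mean of at least 50), scalings, covariates, a replicate block and each sample left out in turn. For the choroid plexus list only summed levels are given, since 62.5% of its genes were in the table.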

Additional observations from a re-analysis of the deposited data

Results flagged for a closer look

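In 5 of 50 groups of 5 samples, 1 sample stood apart by Dixon's criterion, where chance gives about 2.5. Slc12a5 was 13398 normalised counts in WT4, against 15637 to 16005 in the other WT mice. Sgk1 was 1274 in HT2, against 1517 to 1602, and 1469 in WT5, against 1236 to 1302. Capn1 was 689.6 in WT3, against 588 to 616. Slc12a8 was 49.2 in HT3, against 26.6 to 32.3.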

How the results depend on the processing

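Slc12a2 and Slc12a7 kept their direction and did not pass the adjusted threshold in any of 26 alternatives, with Slc12a2 between 0.06 and 0.14 (log2) and Slc12a7 between -0.49 (astrocyte covariate) and -0.03 (without HT1). The adjusted limma p-values of Slc12a7 ranged from 0.70 to 1.00 over these alternatives. Slc12a5 changed sign under upper-quartile rescaling (0.0037), quantile normalization (0.029), sample quality weights (0.00023), the astrocyte (0.037), neuron (0.063) and olfactory bulb covariates (0.036) and without HT5, WT3 and WT5 (0.019), and ran from -0.054 to 0.032 when each sample was left out in turn, with 5 of 10 values above 0; the cause was not tested. Leaving out 1 sample at a time, the Slc12a5 to Slc12a2 difference ran from -0.19 (without WT4, exact permutation p = 0.048) to -0.062, and the Slc12a7 to Slc12a2 difference from -0.43 (without HT5, exact permutation p = 0.0079) to -0.15. Each passed 0.05 only in the setting named, without adjustment. For Slc12a7 to Slc12a2 that p was fixed by leaving out the HT mouse that did not lie below every WT mouse. In the limma fit across all genes the Slc12a5 to Slc12a2 row missed an unadjusted p of 0.05, with and without the variance trend; the fit without it was chosen after seeing the data, as were the olfactory bulb and meninges covariates and both groups of samples left out. Over all genes 3 or 4 passed in each setting, and 0 in each of the 4 lists. The median of the SLC12 family was 0.014, and 0.13 without HT2 and WT4, with a range of -0.0074 to 0.12 (highest without WT4) when each sample was left out. Genes with an unadjusted limma p under 0.05 numbered 0 to 2 in the SLC12 family, 1 or 2 in the WNK cascade (2 without HT1), 1 to 6 among KCC2 regulators and 0 to 2 in anion and pH transport (2 without HT1).

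With the replicate number as a block, the Slc12a5 to Slc12a2 difference was -0.12 (exact sign flips, p = 0.125, where the smallest p the 5 pairs allow is 0.0625) and that of Slc12a2 0.11 (limma, adjusted p = 0.57). Deviations of same-numbered mice correlated between -0.04 and 0.10, so the numbers were not read as pairs, although 5 of 10 samples correlated best with their own number. Isoforms of Slc12a5, protein and phosphorylation were not measured, and depth is unknown.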
